A study of Mus musculus with 5 samples.

Results

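Transcripts of 7 complement genes were traced to their cells of origin in mouse colon tumors and normal mouse colon. The genes were C1qa, C1qb and C1qc, which encode the chains of the recognition molecule C1q, C4b and C3, which encode the complement proteins C4 and C3, Cfb, which encodes factor B, and Serping1, which encodes the C1 inhibitor. They were given by name and are 7 of the 21486 genes with at least 1 count in the cells kept. Single cells were measured by inDrop, a droplet method in which each transcript carries a molecular identifier, so that the unit throughout is a count of unique molecules (UMI). The 4 tumor libraries came from wildtype (WT) mice whose colon tumors had been induced with azoxymethane and dextran sodium sulfate (AOM/DSS) and treated with cycles of Irinotecan followed by 5-FU. They were harvested at day 1 (replicates 1 and 2), day 3 and day 6, where day 1 formed the early and days 3 and 6 the late treatment group. A single library came from untreated WT colon, dissociated to enrich fibroblasts and other stroma after the crypts had been shaken off. The study's methods give the background as C57BL/6J or a C57BL/6J and 129 mix. The labels give no age, while the methods give a range in weeks for the start of experiments. Whether days were counted from the start of treatment or from the last cycle is described in both ways. No untreated tumor was analysed here, so that in every comparison of tumor with normal colon the tumor, the drugs, the dissociation and the library cannot be told apart.

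Complement is a cascade of blood and tissue proteins that marks targets for uptake by phagocytes. In the classical pathway C1q binds a target and its associated proteases cleave C4, whereas in the alternative pathway factor B joins C3b to form the enzyme that cleaves more C3. The liver supplies most complement of the blood, while macrophages, fibroblasts and epithelia make components in tissue, and macrophages are a known source of C1q. The C1 inhibitor, a secreted protease inhibitor, blocks the C1 proteases and therefore acts on the first step of the classical pathway.

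After removal of barcodes with fewer than 500 genes or more than 15% mitochondrial counts, 748, 2403, 1419 and 2826 cells were kept from tumors, in the order of the first and second replicate of day 1, then day 3, then day 6, and 1095 from the normal colon, with median depths of 2903 to 3601 UMIs per cell. Between 4 and 41 cell barcodes were shared by any 2 libraries. Cells were grouped by clustering from which all complement genes were left out, and clusters were named from marker lists, where the ending -like says that RNA alone supports the name. RNA alone also supports the name columnar epithelial, which the tumor clusters got by a looser rule, against non-epithelial cells of their libraries. Weakly marked tumor clusters of 686 and 536 cells had mean log2 differences in columnar markers of 0.396 and 0.00714. The first held 636 cells of day 3, and the second 154 and 344 cells of day 1 replicates 1 and 2. Columnar epithelial cells numbered 281, 1240, 899, 1378 and 331 in the order of libraries above, macrophage-like cells 45, 141, 4, 145 and 69, and fibroblast-like cells 14, 39, 30, 56 and 366, which in the normal colon included 102 telocyte-like cells. Squamous-like cells (53, 187, 283 and 728) were named in the tumor libraries only. All 10 macrophage markers were detected in the macrophage-like cells of each library used, and at least 8 of 10 fibroblast markers in the fibroblast-like cells of each. Day 3 stood apart. Its 4 macrophage-like cells were too few for a sum, since sums of fewer than 10 cells were not used, and 11 columnar markers reached 65.8% of their columnar level in its lymphatic endothelial-like cells and 82.9% in its neutrophil-like cells. In its fibroblast-like cells the summed columnar markers, at 6957 CPM (UMI counts per 1000000 UMIs of the summed cells), exceeded the summed fibroblast markers, at 6304 CPM. The first day 1 replicate and day 3 carried a single index and were read on a BGI MGI-Seq, and the other libraries carried a dual index and were read on a NovaSeq6000. Each library structure thus held 1 early and 1 late tumor library.

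The 3 chains of C1q were macrophage transcripts in tumors and in normal colon. In macrophage-like cells C1qa had 1479, 575 and 2215 CPM in day 1 replicate 1, day 1 replicate 2 and day 6, and 2994 CPM in the normal colon. C1qb had 1522, 618, 2429 and 2183 CPM in the same order. C1qc had 882, 378, 1913 and 2187 CPM. Day 1 replicate 2 was the lowest library for each chain, and the normal library was the highest for C1qa and C1qc but lay below day 6 for C1qb. Among other cell types the highest tumor library was that of day 6 lymphatic endothelial-like cells, with 97.3 CPM of C1qa, 137 CPM of C1qb and 70.8 CPM of C1qc. Of the 22 C1qa counts behind that value, 21 lay in 1 of 83 cells. Thus, for C1qa, C1qb and C1qc every tumor library of the leading type exceeded every tumor library of all other types, which held for 8.22% of the 16334 genes compared in the same way. For C3, C4b, Cfb and Serping1 the leading type overlapped with at least 1 other type.

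**Figure D1:**
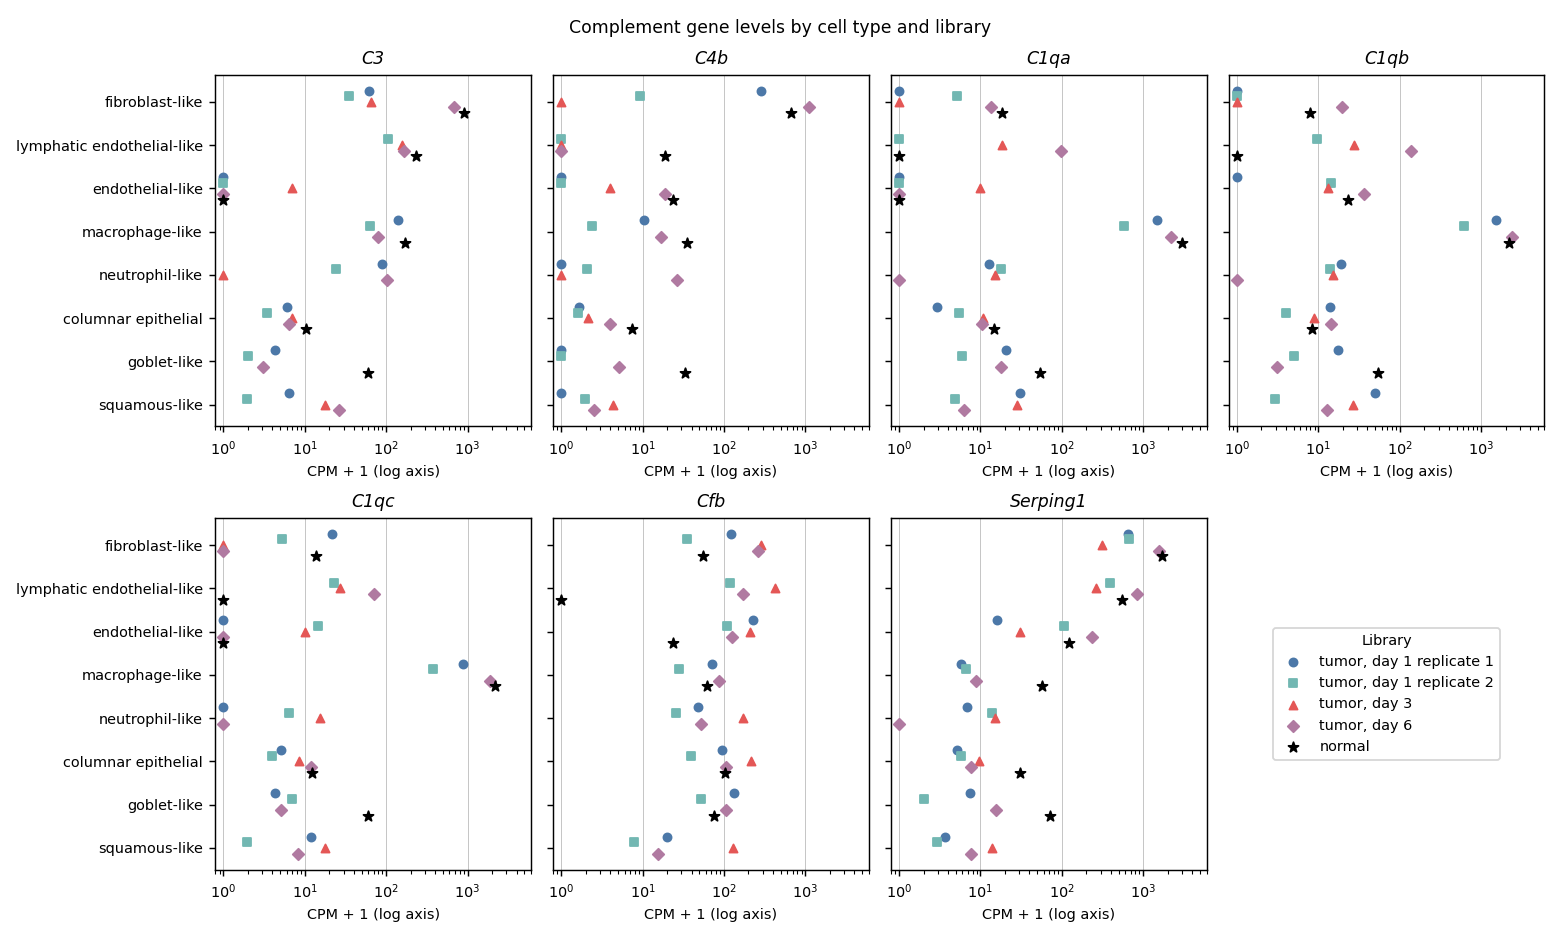
Level of each gene in 8 cell types, as CPM + 1 on a log axis, with 1 point per library that held at least 10 cells of the type. The C1q chains stand between 378 and 2994 CPM in macrophage-like cells and at 137 CPM or less elsewhere, C3, C4b and Serping1 reach their highest tumor values in fibroblast-like cells of day 6, and Cfb is spread over epithelial and stromal types.

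The 3 C1q genes are neighbors. In the GRCm38.p6 assembly with RefSeq annotation, C1qb (chr4:136880126-136886200), C1qc (chr4:136889801-136892936) and C1qa (chr4:136895916-136898844) lie within 18719 bases that hold no other annotated gene. The 250 bases before an annotated start are shown for C1qb and C1qc, whose transcripts were found in the same cells, and are written 5′ to 3′ along the gene on the minus strand. Capitals mark GAGGAA or its reverse complement TTCCTC, a sequence with the core that ETS factors such as the myeloid factor PU.1 bind. Each promoter held 1 match, which lay 30 bases before the start in C1qb and 193 bases before it, as the reverse complement, in C1qc. Distances are counted from the start that the promoter entry uses. For C1qc that start lies inside the annotated gene, so that its window (chr4:136892915-136893164) includes the first bases of the gene, and the C1qb window is chr4:136886201-136886450. Among 32851 RefSeq promoters of that length 23.3% held the motif on either strand, so that a match is common.
C1qb: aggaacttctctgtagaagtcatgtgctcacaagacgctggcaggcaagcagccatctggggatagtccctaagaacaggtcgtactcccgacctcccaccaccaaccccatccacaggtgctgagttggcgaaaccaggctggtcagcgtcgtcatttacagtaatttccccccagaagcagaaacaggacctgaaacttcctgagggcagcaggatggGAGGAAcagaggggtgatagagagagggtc
C1qc: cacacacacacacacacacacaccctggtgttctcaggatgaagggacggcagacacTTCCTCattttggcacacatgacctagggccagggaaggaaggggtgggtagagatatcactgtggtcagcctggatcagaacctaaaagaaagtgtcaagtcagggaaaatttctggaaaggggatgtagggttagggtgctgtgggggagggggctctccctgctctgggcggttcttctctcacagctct

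Within macrophage-like cells C1q was detected in some cells and not in others. All 3 chains were detected together in 14 of 45 cells (31.1%) of day 1 replicate 1, 27 of 141 (19.1%) of day 1 replicate 2, 58 of 145 (40.0%) of day 6 and 41 of 69 (59.4%) of the normal colon, with exact 95% binomial intervals of 18.2 to 46.6, 13.0 to 26.6, 32.0 to 48.5 and 46.9 to 71.1%. No chain was detected in 23, 99, 67 and 20 cells. Cells with all 3 chains held 96.7 to 99.0% of the C1q counts of macrophage-like cells in each library, a share that the choice of these cells fixes in part. The percent of cells with all chains was lowest in day 1 replicate 2 and highest in normal colon. Depth differed little in day 1 replicate 2, where medians were 4979 UMIs in cells with all chains and 4638 in cells with none, but they were 5240 against 3165 UMIs in day 1 replicate 1 and 5167 against 3037 UMIs in day 6, so that a count of 0 does not show that a cell lacked C1q. With each cell thinned to 1000 UMIs, C1qa was detected in 26.7, 19.1, 37.2 and 64.1% of macrophage-like cells, and in 0 to 1.12% of the columnar cells of the 5 libraries, whose medians were 2058.5 to 6780 UMIs. Before thinning 2.14, 2.34, 4.34, 4.64 and 6.04% of columnar cells had a C1qa count.

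Cells with all 3 chains also differed in other macrophage genes, which are given as a description because these genes shaped the clusters. Ms4a7, a gene of tissue macrophages, had 551, 269, 1043 and 525 CPM in cells with all chains and 11, 8.52, 8.93 and 12.8 CPM in cells with none. Mrc1, the mannose receptor, had 778, 745, 492 and 1617 CPM against 44.1, 97.9, 71.4 and 51.2 CPM. C3ar1, the receptor for the C3a fragment, had 83.8, 188, 209 and 416 CPM against 22.1, 34.1, 8.93 and 12.8 CPM. All 3 were higher in C1q-positive cells of every library. Lyz2, lysozyme, went the other way in the day 1 libraries, with 7613 and 6718 CPM against 23683 and 13918 CPM. It had 8058 against 7367 CPM in day 6, and was higher in C1q-positive cells of the normal colon, with 17591 against 2342 CPM. C3 was lower in C1q-positive cells of the tumor libraries, with 132, 12.5 and 65.4 CPM against 155, 83.0 and 93.8 CPM. These levels rest on 11, 2 and 21 counts against 14, 39 and 21, and no interval was computed. In normal colon C3 was higher in C1q-positive cells, with 266 against 0 CPM (44 against 0 counts).

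**Figure D2:**
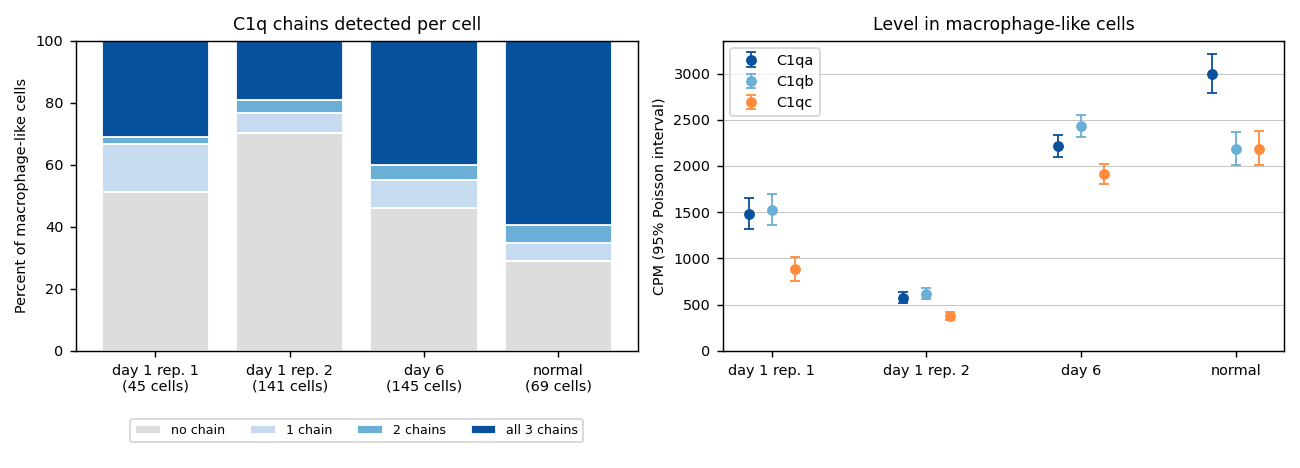
Left, percent of macrophage-like cells in which none, 1, 2 or all 3 C1q chains were detected. Right, level of each chain in CPM with exact 95% Poisson intervals, which cover counting error only. All 3 chains were found together in 19.1 to 40.0% of tumor macrophage-like cells and 59.4% of normal ones.

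In day 3 the 4 macrophage-like cells held 70 of 161 C1qa counts, 68 of 147 C1qb counts and 45 of 107 C1qc counts. In the other libraries macrophage-like cells held 83.2 to 90.4% of C1qa, 78.5 to 88.6% of C1qb and 80.9 to 88.6% of C1qc. Columnar epithelial cells held 26.7% of C1qa in day 3 and 10.5% or less in the other tumor libraries. The level per columnar cell was low, with C1qa at 1.91, 4.45, 9.90 and 9.44 CPM in the tumor libraries and 13.7 CPM in normal colon, which is 0.129 to 0.774% of the level in macrophage-like cells where these could be measured. The median macrophage marker stood at 0.702 to 1.29% of its macrophage level in the same cells, above C1qa in each of these libraries. Day 3 could not be measured in this way, and the part of background RNA in columnar C1qa was not tested.

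C4b was a transcript of fibroblasts in normal colon and of fibroblasts in 2 of the 4 tumor libraries. C4b is nearly identical in sequence to its neighbor C4a, and how reads were divided between them is not known, so that its values are uncertain. Fibroblast-like cells had 285 CPM in day 1 replicate 1 (14 counts in 4 of 14 cells), 8.42 CPM in day 1 replicate 2 (2 counts), no count in day 3, which allows up to 27.6 CPM at 3 counts, and 1106 CPM in day 6 (179 counts in 40 of 56 cells). The normal fibroblast-like cells had 664 CPM. Day 6 therefore lay above normal colon while the remaining tumor libraries lay below it, and the mean of the tumor libraries, 350 CPM, fell to 97.8 CPM without day 6. Glial-like cells, which were named in normal colon only, came next with 630 CPM (31 counts in 12 of 18 cells). Columnar epithelial cells had 0.638, 0.611, 1.15, 3.03 and 6.39 CPM in the 5 libraries, and macrophage-like cells 1.42 to 15.8 CPM in tumors and 34.1 CPM in normal colon.

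C3, the component on which all pathways converge, had no single source in tumors. In fibroblast-like cells it had 61.1, 33.7, 64.3 and 673 CPM in the 4 tumor libraries, in the same order from day 1 to day 6, from 3, 8, 7 and 109 counts, and 902 CPM in normal colon from 919 counts. Day 6 stood far above the other tumor libraries and below normal colon. In lymphatic endothelial-like cells C3 had 105, 157 and 164 CPM in day 1 replicate 2, day 3 and day 6 and 234 CPM in normal colon. In macrophage-like cells it had 137, 62.5 and 77.4 CPM in the tumor libraries and 171 CPM in normal colon. In neutrophil-like cells it had 88.9, 23.5, 0 and 103 CPM, where 0 counts in 28 cells of day 3 allow up to 42.7 CPM. Fibroblast-like cells led on the mean of the tumor libraries (208 CPM), but without day 6 that mean was 53.0 CPM, below each lymphatic endothelial-like library, so that the order of these types is not fixed by their spread.

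Epithelial levels of C3 were lower. Columnar epithelial cells had 5.11, 2.44, 5.99, 5.36 and 9.27 CPM in the 5 libraries, and squamous-like cells had 5.42, 0.972, 17.0 and 25.2 CPM in the 4 tumor libraries. In day 6 squamous-like cells C3 was found in 84 of 728 cells, and its level was 3.74% of that of fibroblast-like cells, while the median of 7 fibroblast markers was 0.174% there, with a range of 0.103 to 21.2%. In day 3 the corresponding values were 26.4% for C3 and 0.842% for the markers, with a range of 0.547 to 3.57%. In normal colon C3 in columnar cells was at 1.03% of the fibroblast-like level and the fibroblast markers at 1.35%. In columnar cells of the tumor libraries C3 was at 8.36, 7.26, 9.30 and 0.796% of the fibroblast-like level, and the highest fibroblast marker at 1.22, 0.399, 1.72 and 3.83%. Epithelial C3 thus exceeded the range of the fibroblast markers in day 1 and day 3 but not in day 6 or in normal columnar cells, and in day 1 macrophage-like cells had higher C3 levels than fibroblast-like cells.

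A few cells held much of the C3 in types that otherwise lacked it. In Paneth-like cells of day 3, 21 of 22 counts came from 1 of 77 cells. In myofibroblast-like cells of normal colon, 46 of 48 counts came from 1 of 74 cells. In goblet-like cells of normal colon, 25 of 31 counts came from 1 of 66 cells. Levels of 51.2, 233 and 58.4 CPM in these types therefore each rested mainly on a single cell.

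Normal fibroblasts were not uniform in C3 and C4b. They formed 3 clusters and the telocyte-like cells, which carry the telocyte markers Foxl1, Wnt5a and Bmp7. C3 had 2581 CPM in the 40 cells led by Pi16 and Cilp, 995 CPM in the 112 cells led by Eln and Grem1, 691 CPM in the 112 cells led by Sfrp1 and Adamdec1, and 30.3 CPM in telocyte-like cells. C4b had 104, 1176, 780 and 15.2 CPM in the same order. The cluster with the most C3 thus held little C4b, and telocyte-like cells held little of either. Serping1 had 2017, 2028, 1971 and 826 CPM with counting intervals that overlapped between the 3 fibroblast clusters. All 4 groups come from 1 library, so their differences have no replicate, and C4b itself was among the 10 leading genes of the Eln and Grem1 cluster.

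**Figure D3:**
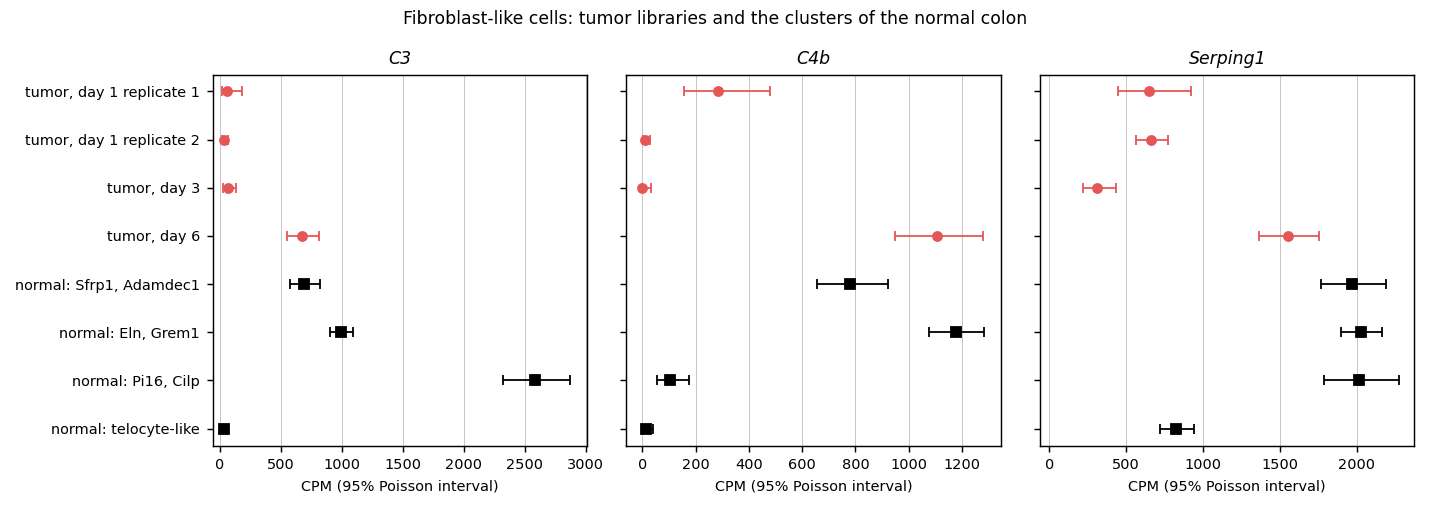
C3, C4b and Serping1 in fibroblast-like cells, in CPM with exact 95% Poisson intervals for counting error, for the 4 tumor libraries (circles) and the 4 fibroblast groups of the normal colon (squares, with 2 leading genes each). Day 6 is the highest tumor library for C3 and C4b, at 673 and 1106 CPM, and all 4 tumor libraries for C3 but only day 1 replicate 1 and day 6 for C4b lie within the range of the normal groups.

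Among tumors, nearly all fibroblast-like cells with both C3 and C4b were cells of day 6. Both were detected in 29 of 56 fibroblast-like cells of day 6, in 1 of 14 of day 1 replicate 1, in none of 39 of day 1 replicate 2 and of 30 of day 3, and in 105 of 366 of normal colon. All of C3, C4b and Serping1 were detected in 1 cell of day 1 replicate 1, 25 cells of day 6 and 100 of normal colon. With cells thinned to 1000 UMIs, C3 was found in 0, 5.13, 0, 27.5 and 31.6% of fibroblast-like cells of the 5 libraries and in 0.242 to 0.779% of columnar cells, and C4b in 14.3, 0, 0, 41.2 and 33.1% of fibroblast-like cells. Median depth of fibroblast-like cells was 3103, 4479, 2696, 2019.5 and 2175.5 UMIs, so the libraries with the highest shares were the shallowest. The 9 other leading genes of the Eln and Grem1 cluster summed to 3663, 1616, 3115 and 10791 CPM in the fibroblast-like cells of the 4 tumor libraries and 23489 CPM in normal colon, and 10 leading genes of the tumor fibroblast cluster, with Mmp10 and Mmp13 among them, summed to 45468, 31670, 12590 and 23761 CPM. Hence the tumor library with the most C3 and C4b was also the one with the most RNA of genes that lead a normal fibroblast cluster, and the part of cell makeup in the C3 and C4b levels was not tested.

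Cfb, the protease of the alternative pathway, was found in epithelial and in stromal types. Columnar epithelial cells held 63.2, 71.0, 68.4, 74.9 and 73.2% of all Cfb counts in the 5 libraries. Their level was 94.5, 38.5, 213 and 103 CPM in the tumor libraries, again from day 1 to day 6, and 102 CPM in normal colon, which lay inside the tumor range. Goblet-like cells were similar, with 130, 51.2, 105 and 73.5 CPM in both day 1 libraries, day 6 and normal colon. Squamous-like cells had 19.0, 6.80 and 14.6 CPM in the day 1 libraries and day 6, and 129 CPM in day 3. Squamous-like cells were below columnar cells in each of the 4 libraries. With cells thinned to 1000 UMIs, Cfb was found in 13.9, 3.06, 19.2, 10.3 and 10.2% of columnar cells and in 0 to 0.680% of plasma-like cells, which are not known to make factor B. T cell-like cells, another type not known to make it, had Cfb in 3.85% of 26 cells of day 1 replicate 2 and 3.25% of 154 cells of day 6. The first value has an exact 95% interval of 0.0973 to 19.6%, so it does not set the columnar share of that library (2.18 to 4.18%) apart. There, neutrophil-like (1.79% of 392) and erythroid-like cells (1.28% of 78) lay below the columnar share. Macrophage-like (5.67%), goblet-like (6.58%) and endothelial-like cells (9.84%) lay above it. The intervals of all these types overlapped with the columnar one. The columnar level of 38.5 CPM exceeded 14.0 CPM in T cell-like cells.

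Columnar cells held more of the Cfb counts than their 37.6, 51.6, 63.4, 48.8 and 30.2% of cells in the 5 libraries, although the Cfb level was as high or higher in several stromal types of the tumor libraries. Lymphatic endothelial-like cells had 118, 428 and 168 CPM in day 1 replicate 2, day 3 and day 6, and 0 counts in 21 normal cells, which allows up to 54.1 CPM. Endothelial-like cells had 225, 107, 210 and 126 CPM in the tumor libraries and 22.3 CPM in normal colon (4 counts in 48 cells). Fibroblast-like cells had 122, 33.7, 285 and 259 CPM in the tumor libraries and 54 CPM in normal colon. In endothelial-like cells, which were not tested, all 4 tumor libraries lay above the normal library, and in fibroblast-like cells 3 of 4 did. Columnar RNA was also present in these cells, so each value was set beside the 11 columnar markers as a percent of the level in columnar cells of the same library. In lymphatic endothelial-like cells Cfb was at 306, 201 and 163% of the columnar level where the markers were at 28.2, 65.8 and 38.1%. In endothelial-like cells Cfb was at 239, 279, 98.8 and 122%, and the markers at 24.2, 27.9, 68.4 and 24%. In fibroblast-like cells Cfb was at 129, 87.5, 134 and 251%, and the markers at 49.6, 22.6, 62.9 and 28.7%. In macrophage-like cells Cfb was at 75.3, 70.1 and 84.0% in both day 1 libraries and day 6, and the markers at 36.7, 31.9 and 23.6%. In macrophage-like cells of normal colon the values were 59.3% and 3.58%. Cfb exceeded the columnar markers in each of these libraries. In neutrophil-like cells, by contrast, both were of like size, at 50.2, 63.9, 80.1 and 49.7% against 79.3, 61.9, 82.9 and 47.0%.

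**Figure D4:**
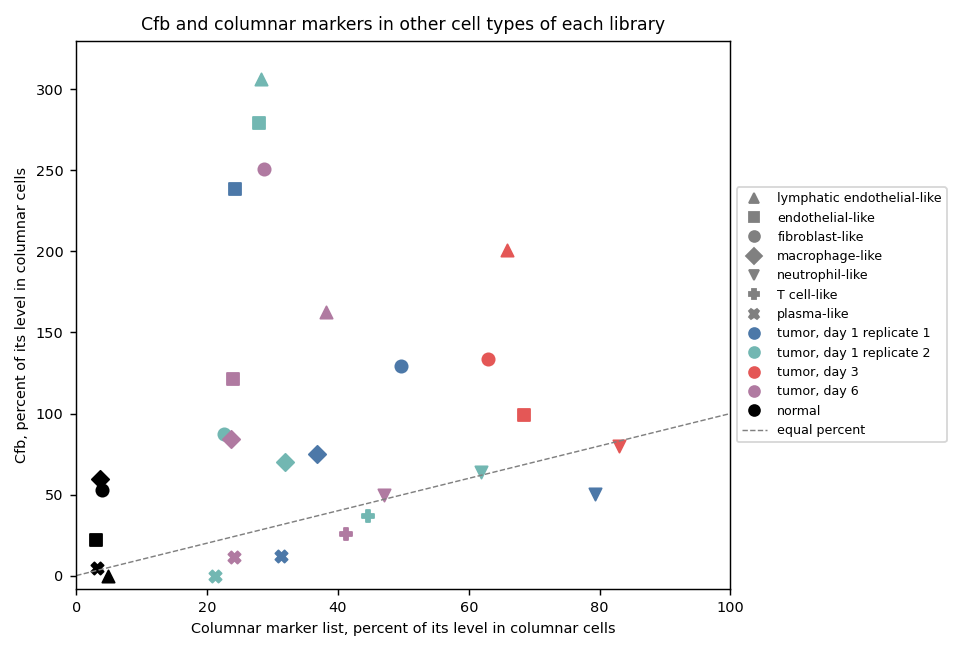
Cfb against 11 columnar marker genes in non-epithelial cell types, each as percent of its level in columnar cells of the same library, with 1 point per cell type and library. Points of lymphatic endothelial-like, endothelial-like, fibroblast-like and macrophage-like tumor cells lie above the line of equal percent, neutrophil-like cells lie near it, and plasma-like cells of the tumor libraries lie below it.

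Serping1 was a stromal transcript in both tissues. Fibroblast-like cells had 651, 661, 312 and 1550 CPM in the tumor libraries from day 1 to day 6, and 1705 CPM in normal colon, with counts in 10 of 14, 26 of 39, 13 of 30, 42 of 56 and 323 of 366 cells. Lymphatic endothelial-like cells had 384, 262 and 845 CPM in the tumor libraries and 541 CPM in normal colon. Both types were highest in day 6 among tumors, and their tumor ranges overlapped. Pericyte-like and myofibroblast-like cells of normal colon had 1099 and 578 CPM, and endothelial-like cells 15 to 233 CPM in tumors and 123 CPM in normal colon. Enteroendocrine-like cells had 36.1, 350 and 117 CPM in day 1 replicate 1, day 1 replicate 2 and day 6, where 37 of the 61 counts of day 1 replicate 2 came from 1 cell, while in day 6 the 33 counts were spread over 15 of 41 cells. Macrophage-like cells had 4.74, 5.68 and 7.90 CPM in tumors and 56.9 CPM in normal colon. Columnar epithelial cells had 4.15, 4.71, 8.52 and 6.64 CPM in tumors and 29.4 CPM in normal colon. Thus C1q and the inhibitor of its proteases were transcribed in different cells, with little Serping1 in macrophage-like cells and, at 0 to 20.4 CPM, little of any C1q chain in fibroblast-like cells.

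The share of a gene's counts that a cell type held also rests on how many of its cells were sampled. Fibroblast-like cells were 1.62 to 2.11% of tumor cells and 33.4% of cells of the stroma-enriched normal library. They held 4.29, 6.11, 7.07 and 30.0% of C3 counts in the tumor libraries and 83.9% in normal colon, and 49.2, 37.7, 23.6, 41.9 and 80.5% of Serping1 counts. In tumors macrophage-like cells held the largest share of C3 in day 1 replicate 1 (41.4%, exact 95% interval 29.8 to 53.8%) and day 1 replicate 2 (33.6%, 25.6 to 42.4%), with intervals that overlapped those of columnar cells (13.7 to 34.4% and 14.7 to 29.4%). Columnar cells had the largest share of C3 in day 3 (26.3%, 17.9 to 36.1%), where macrophage-like cells were nearly missing, but Paneth-like (22.2%), squamous-like (20.2%) and lymphatic endothelial-like cells (18.2%) overlapped with them. In day 6 squamous-like cells (32.0%, 27.2 to 37.0%) and fibroblast-like cells (30.0%, 25.4 to 35.0%) held shares whose intervals overlapped. In no tumor library was the largest contributor of C3 thus set apart from the next by its counting interval, whereas macrophage-like cells for the C1q chains and columnar cells for Cfb were the largest in all 5.

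Tumor and normal colon were compared on counts summed over the cells of a type in each library, with edgeR's quasi-likelihood test and Benjamini-Hochberg adjustment over all genes tested. The normal group is 1 library, which was assumed to vary like the tumor libraries, and the study calls the libraries of each treatment group biological replicates while the labels give no animals, so p-values measure the spread between these libraries. No member passed an adjusted p of 0.05 in fibroblast-like cells, where 4 of the 7 passed the filter on low counts and 1.92% of 5882 genes were called (113 genes, with 790 at an unadjusted p under 0.05, and 180 called by DESeq2). C3 had the largest difference, with a log2 change of -2.36 (SE 1.11, adjusted p = 0.386), from TMM-scaled levels of 61.4, 35.6, 70.8 and 759 CPM in tumors and 1225 CPM in normal colon. All 4 tumor libraries lay below the normal one, and day 6 decided the call, since without it the log2 change was -4.52 (edgeR adjusted p = 0.00151). Without a filter on low counts the adjusted p of C3 was 0.0433 at a log2 change of -2.41. Serping1 had a log2 change of -1.42 (SE 0.85, edgeR adjusted p = 0.544) and was below normal in 4 of 4 libraries. C4b had -1.22 (SE 1.57, edgeR adjusted p = 0.866), and Cfb had 1.38 (SE 1.01, edgeR adjusted p = 0.682). For C4b 3 of 4 tumor libraries lay below normal, and for Cfb 3 of 4 lay above it. Pericyte-like (25) and myofibroblast-like cells (74) were named in normal colon only, so its fibroblast-like sum left them out. In fibroblast-like cells pericyte markers summed to 1099, 2996, 138 and 377 CPM in the tumor libraries and 435 CPM in normal colon. Myofibroblast markers summed to 1771, 921, 2105 and 2588 against 1894 CPM. The part of this makeup in the changes was not tested. The unfiltered fit called more genes than the main one, as counted at the end.

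In macrophage-like cells all 7 members were tested, none was called, and 2.68% of 8469 genes were called (227, with 1313 at an unadjusted p under 0.05, and 175 called by DESeq2). The 3 tumor libraries with enough cells entered the fit. Every fit that left out 1 of them, and the unfiltered fit, called more genes than this one, as counted at the end. C1qa had a log2 change of -1.18 (SE 0.69, edgeR adjusted p = 0.441), C1qb -0.63 (SE 0.71, adjusted p = 0.709) and C1qc -1.15 (SE 0.75, adjusted p = 0.498). That C1qa and C1qc were not called rested on day 6, the tumor library nearest to normal colon. Without day 6 the log2 change was -1.71 for C1qa (edgeR adjusted p = 0.0233) and -1.97 for C1qc (adjusted p = 0.00503). Serping1 had the largest log2 change, -3.24 (SE 0.85, unadjusted p = 0.00295, edgeR adjusted p = 0.0759), from 1, 4 and 5 counts in tumors and 15 counts in 5 of 69 cells of normal colon. It passed the threshold without day 1 replicate 1 (log2 change -3.18, edgeR adjusted p = 0.0413) and without a filter on low counts (-3.13, adjusted p = 0.00683). Fibroblast markers moved with it, since the 10 summed to 156, 59.7 and 55.3 CPM in the macrophage-like cells of the tumor libraries and 921 CPM in those of normal colon, and their part in the Serping1 value was not tested. C3 (log2 change -1.07), C4b (-2.05) and Cfb (-0.12) had edgeR adjusted p-values of 0.352, 0.444 and 0.95.

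In columnar epithelial cells all 7 members were tested, none was called, and 0.972% of 14092 genes were called (137, with 1971 at an unadjusted p under 0.05, and 629 called by DESeq2). Cfb differed least, with a log2 change of 0.07 (SE 0.92, edgeR adjusted p = 0.980), and the sign turned without day 3, to -0.50. Serping1 had a log2 change of -2.38 (SE 0.61, unadjusted p = 0.00516, edgeR adjusted p = 0.158) and lay below normal in 4 of 4 libraries. The 10 fibroblast markers summed to 48.9 to 97.4 CPM in tumor and 397 CPM in normal columnar cells, and their part in this value was not tested. C3, C4b, C1qa and C1qc had log2 changes between -2.21 and -0.84 and C1qb one of 0.23, with edgeR adjusted p-values of 0.404 to 0.929. Of these genes C4b had the largest change, at 0.611 to 3.03 CPM in tumors and 6.39 CPM in normal colon.

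Whether tumor and normal differed by another amount in fibroblast-like than in columnar cells was tested as an interaction in edgeR, with the libraries as blocks. All 7 members were tested and none was called, against 3.44% of 14452 genes (497, with 1790 at an unadjusted p under 0.05, and 199 called by DESeq2). For C3 the log2 change in fibroblast-like cells was below that in columnar cells (interaction -2.03, SE 0.74, unadjusted p = 0.00638, edgeR adjusted p = 0.121). Without day 6 the interaction was -3.09 (edgeR adjusted p = 0.00166), so that here too the call turned on day 6. Cfb had an interaction of 1.27 (SE 0.71, adjusted p = 0.499) and Serping1 one of 0.88 (SE 0.61, adjusted p = 0.672). The C1q chains, whose counts in these cells were low, had values of -1.03 to -0.87 with adjusted p-values of 0.934 to 0.955.

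**Figure D5:**
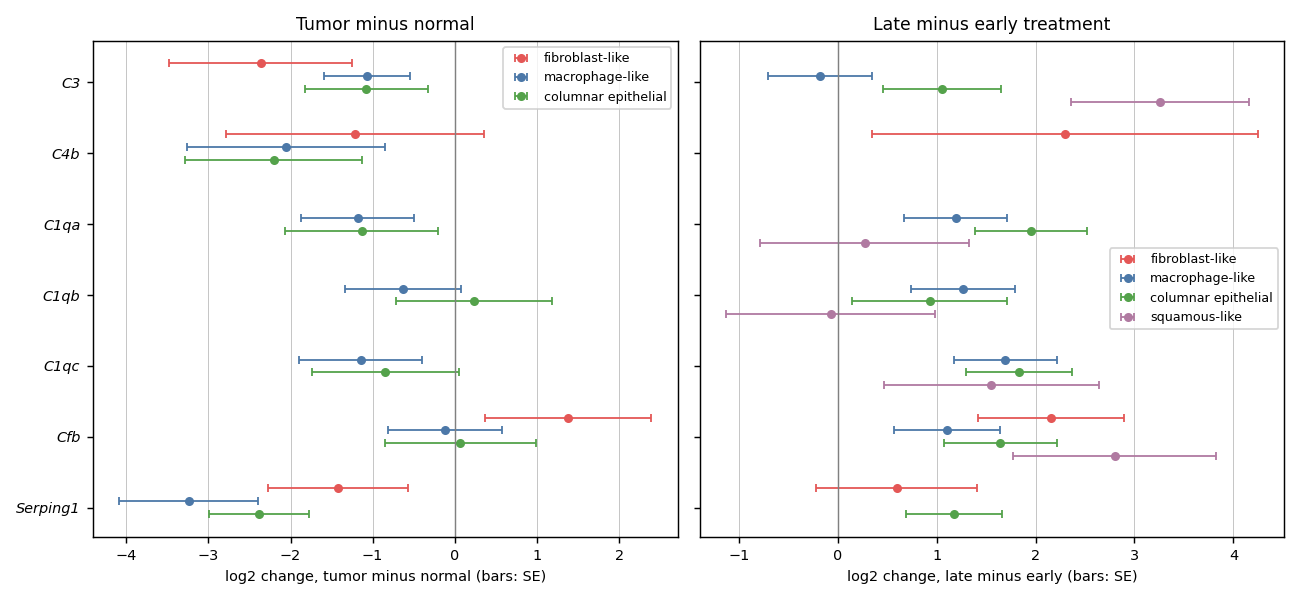
Fitted log2 change of each member that passed the filter on low counts, tumor minus normal (left) and late minus early (right), with SE bars and 1 color per cell type. No member passed an adjusted p of 0.05, and the largest changes are those of Serping1 in macrophage-like cells (-3.24, left) and of C3 in squamous-like cells (3.26, right).

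Late was compared with early treatment within the tumor libraries. In fibroblast-like cells 3 members passed the filter, and 0% of 3333 genes, hence no member, were called by edgeR's quasi-likelihood test (269 had an unadjusted p under 0.05, and DESeq2 called 11). C4b had a log2 change of 2.30 (SE 1.95, edgeR adjusted p = 0.793), Cfb 2.15 (SE 0.74, adjusted p = 0.584) and Serping1 0.60 (SE 0.81, adjusted p = 0.884). C4b turned on which library was used. Without day 3 its log2 change was 3.40 (edgeR adjusted p = 0.0013), without day 1 replicate 1 it was 6.05 (adjusted p = 0.0432), and without day 6 it was -6.88 (adjusted p = 0.132), a fitted value that depends on the prior count because day 3 had no count. Within dual index libraries C4b went from 2 to 179 counts and C3 from 8 to 109, whereas within single index libraries C4b went from 14 counts to none and C3 from 3 to 7. The 2 structures thus went opposite ways for C4b, and Serping1 did so as well, at 0.480 times the early level in single index and 2.35 times in dual index libraries. Cfb was higher late in both, by 2.33 and 7.71 times.

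In macrophage-like cells the comparison set day 6 against both day 1 libraries, and this lone late library was assumed to vary like the early ones. The p-values of this fit rest mainly on a spread that edgeR pooled over all genes tested. They do not measure the spread of a single gene, such as C1qc at 882 and 378 CPM in the day 1 libraries. No member was called by edgeR's quasi-likelihood test, against 2.09% of 8886 genes (186, with 814 at an unadjusted p under 0.05, and 16 called by DESeq2). C1qc came nearest, with a log2 change of 1.69 (SE 0.52, unadjusted p = 0.00112, edgeR adjusted p = 0.0526), and day 6 lay above both day 1 libraries for each chain. C1qc passed the threshold without a filter on low counts (1.74, adjusted p = 0.0361) and after removal of the 6% of cells with the highest doublet scores (1.70, adjusted p = 0.0291). C1qa and C1qb had log2 changes of 1.19 and 1.27 (SE 0.52 each, edgeR adjusted p = 0.369 and 0.313). Within dual index libraries the late level was 3.85, 3.93 and 5.06 times the early level for C1qa, C1qb and C1qc. C3 (-0.18, adjusted p = 0.989) and Cfb (1.11, adjusted p = 0.494) made up the rest of the 5 members tested.

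In columnar epithelial cells 6 members were tested and 0% of 13546 genes were called by edgeR's quasi-likelihood test, so no member was, while 2283 genes had an unadjusted p under 0.05 and DESeq2 called 670. C1qa (log2 change 1.95), C1qc (1.83) and Cfb (1.64) had edgeR adjusted p-values of 0.208, 0.211 and 0.248. As a share of the macrophage-like level, columnar C1qa and C1qc lay below the median macrophage marker wherever this could be measured. Day 3, a late library, could not be measured in this way, and the part of macrophage RNA in the change of C1qa and C1qc was not tested. Cfb was 2.25 times its early level late in single index and 2.69 times in dual index libraries, but day 6 (103 CPM) lay close to day 1 replicate 1 (94.5 CPM). Without a filter on low counts, Cfb (edgeR adjusted p = 0.012) and C1qa (adjusted p = 0.0466) passed, in a fit that also called many other genes, as counted at the end. Over runs that left out 1 library, the log2 change was 1.57 to 2.70 for C1qa and 1.49 to 2.13 for C1qc. Without the columnar clusters that were weakly marked, an alternative chosen after seeing the data, no member changed its call or direction.

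In squamous-like cells 5 members were tested and 0% of 9787 genes were called by edgeR's quasi-likelihood test, while 393 had an unadjusted p under 0.05 and DESeq2 called 21. C3 had a log2 change of 3.26 (SE 0.90, unadjusted p = 0.00495, edgeR adjusted p = 0.999). Both late libraries, at 17.0 and 25.2 CPM, lay above both early ones, at 5.42 and 0.972 CPM, which rested on 2 and 1 counts. Within structures C3 went from 2 to 20 counts in single index and from 1 to 116 in dual index libraries. Cfb had a log2 change of 2.80 (SE 1.03, edgeR adjusted p = 0.999), which came from day 3 alone among late libraries, since day 6 at 14.6 CPM lay between the day 1 libraries. Columnar markers summed to 6815 CPM in squamous-like cells of day 3 and 2241 to 3795 CPM in those of the other libraries, and their part in the Cfb value was not tested. Without day 6, which left 1 late library, the log2 change of Cfb was 3.71. Without a filter on low counts it was 2.79 (edgeR adjusted p = 0.00697), in a fit that called more genes than the main one, as counted at the end.

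A list of 51 complement genes by role, of which 50 had at least 1 count, gave few calls. In fibroblast-like cells 16 were tested and C1rb was lower in tumors than in normal colon, with 0, 0, 0 and 1 counts against 126 (edgeR adjusted p = 0.0225). C1rb is nearly identical to C1ra, so its counts are uncertain. The most abundant of the list in tumor fibroblast-like cells, members aside, were the C1 proteases C1ra, at a mean of 475 CPM over 4 libraries (SD 553) and 961 CPM in normal colon, and C1s1, at 427 CPM (SD 557) and 1672 CPM. They were followed by Clu, clusterin, an inhibitor of the terminal complex (138 CPM in tumors and 25.5 CPM in normal colon), and Cr1l, which encodes the membrane regulator Crry (107 and 70.6 CPM). Hence the proteases that C1 inhibitor blocks were abundant in the cells with the highest Serping1 level, and C1ra and C1s1 were not called in the test.

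In macrophage-like cells 23 genes of the list were tested and Fcna, a ficolin that recognizes targets in the lectin pathway, was lower in tumors, at TMM-scaled levels of 24.2, 12.2 and 11.7 CPM against 151 CPM (log2 change -3.38, SE 0.53, edgeR adjusted p = 0.0114). The leading genes there were receptors and properdin. Itgb2, Itgam and Itgax, subunits of the C3 fragment receptors CR3 and CR4, had means of 611, 458 and 178 CPM in tumors and 273, 292 and 163 CPM in normal colon. C5ar1, the C5a receptor, had 341 and 265 CPM, and Cfp, properdin, which stabilizes the alternative convertase, had 206 and 432 CPM. In the late against early test of macrophage-like cells, 20 of the list were tested and Clu was called, with 34 and 29 counts in day 1 and 1 count in day 6 (edgeR adjusted p = 7.97e-07). That p rests mainly on a spread that edgeR pooled over all genes tested, and does not measure the spread of Clu itself. Only 3 libraries entered this fit, and day 6 was the only late one.

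In columnar cells 28 genes of the list were tested in tumor against normal colon and 26 in late against early, and none was called by edgeR. Clu (157 CPM in tumors and 6.07 CPM in normal colon), Cr1l (128 and 86.6 CPM), Cd55, which speeds the decay of convertases (77.8 and 105 CPM), Cfi, factor I (22.5 and 0.319 CPM), and C4bp (19.96 and 20.8 CPM) led, members aside. In squamous-like cells 12 were tested, none was called, and Cr1l (104 CPM), Clu (68.6 CPM), C1s1 (25.0 CPM), Colec12 (19.7 CPM) and C1ra (16.2 CPM) led. Of 33 genes of the list tested for another change in fibroblast-like than in columnar cells, Cd55 and C4a were called. Cd55 had 15.8, 15.4, 33.2, 111 and 355 CPM in fibroblast-like cells of the 5 libraries and 46, 86.6, 50.2, 148 and 127 CPM in columnar cells on the TMM scale (interaction -2.60, SE 0.76, edgeR adjusted p = 0.0264). C4a had 33 counts in normal and 0 in tumor fibroblast-like cells, and 2, 8, 3 and 9 in tumor and 0 in normal columnar cells (adjusted p = 0.0178), with the same doubt as C4b.

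The genes whose pattern was most like that of each member were sought over 52 sums of library and cell type among 8134 genes, as Pearson correlations of log2(CPM + 10). The sums share libraries and depth, so that the values are descriptions. The C1q chains were most like each other (0.90 to 0.93) and then like Ms4a7, Ms4a6c, Msr1 and, for C1qc, Dnase1l3 (0.84 to 0.89). C4b was most like the matrix and fibroblast genes Olfml3, Lama2, Loxl1, Efemp1 and Sfrp1 (0.83 to 0.86). Serping1 was most like Fgfr1, Tnxb, Fermt2, Aebp1 and Lhfp (0.84 to 0.87). C3 had weaker neighbors in Pdpn, Tgm2, Has1, Serpina3n and Gpx3 (0.67 to 0.72), and so had Cfb, among them Akt1, Tex261, Ppp2r1a and Ebp (0.72 to 0.74). C3, C4b and Cfb are all on chromosome 17, C4b (chr17:34728139-34743902) and Cfb (chr17:34856374-34862514) within 134376 bases with 5 other protein-coding genes between or beside them and C3 apart (chr17:57203967-57228136), yet neither was among the 5 genes most like the other. Serping1 is at chr2:84765360-84775444.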

How the data were processed

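The deposited files hold raw UMI counts per barcode and gene for 5 inDrop libraries, which the authors made from reads aligned to GRCm38 with dropEst and did not normalize. Members and gene lists were chosen with earlier results of these data known. Barcodes with at least 500 genes and at most 15% mitochondrial counts were kept. Each cell was scaled to 10000 counts and log-transformed (pseudocount 1). Tumor libraries together and the normal library alone were clustered with leidenalg 0.10.2 (20 principal components of 2000 variable genes without complement genes, 20 neighbours, resolution 1), and clusters were named from marker lists. No batch correction was made. Scrublet in scanpy 1.11.5 called 4, 4, 3, 0 and 7 doublets, too few to be of use, so no cell was removed and removal of the top 6% of scores was an alternative. Totals were 5132360, 16904947, 6659486, 16079367 and 5814641 UMIs.

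Counts were summed per library and cell type (at least 10 cells), given as CPM of the sum, and tested in edgeR 4.0.16 (TMM, filterByExpr, quasi-likelihood, Benjamini-Hochberg over all genes tested, threshold 0.05), with DESeq2 1.42.0 as an alternative. Types come from clusters of the same cells and were not tested against each other. Poisson and binomial intervals are exact at 95%, and a count of 0 is given the limit of 3 counts, for counting error only. Scripts were tested on simulated data. Named genes were the 7 members, genes of the 51-gene complement list with an adjusted p under 0.05 or among the 5 most abundant (at least 20 UMIs) of 4 cell types, and the 5 genes most like each member with a mean of at least 20 CPM. Leading genes of cell groups and the genes set beside C1q in macrophage-like cells lie outside this rule and were chosen after their values were seen. Other settings, library structure as a block and leaving out libraries were tried. Promoters came from RefSeq, of which 3 members had an entry. C7 and Epcam, which are on the lists, were not analysed here. Some genes that the naming rule selects are not reported here.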

Additional observations from a re-analysis of the deposited data

Results flagged for a closer look

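Among the 28 groups of 4 tumor libraries in which a member was above 3 counts, 2 held a library that stood apart from the other 3 by Dixon's test at its 95% critical value, where chance alone marks about 1 group in 20. C3 in fibroblast-like cells of day 6, at 673 CPM, had a gap of 0.952 of the range. Cfb in squamous-like cells of day 3, at 129 CPM, had a gap of 0.900 of the range. A difference between cell types in the change from normal colon to tumor was called by edgeR's interaction test for Cd55 (adjusted p = 0.0264) and for C4a (adjusted p = 0.0178), both lower in tumor than in normal fibroblast-like cells. The C4a value rests on 33 counts in 1 library.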

How the results depend on the processing

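No member passed the threshold in any of the 8 comparisons as fitted. Of 414 refitted log2 changes 376 kept direction and call, 18 gained a call and 20 turned, and the cause was not tested. In tumor against normal colon Cfb turned in macrophage-like cells without day 1 replicate 2 (0.31) and in columnar cells without day 3 (-0.50) or with dual index libraries only (-0.51), and C1qb in columnar cells without day 6 (-0.17). The interaction of C4b turned without a filter (-0.043), in DESeq2 (-0.88), without day 1 replicate 1 (-0.50), without day 6 (-1.17), at resolution 2 (-0.32) and without the top 6% of doublet scores (-0.78), that of Serping1 with the last of these (-0.83) and that of C1qc without day 6 (0.0056). In late against early, C4b (-6.88) and Serping1 (-1.01) turned in fibroblast-like cells without day 6, and in squamous-like cells C1qb without day 1 replicate 1 (3.30), without day 6 (0.55), without the top 6% (1.80) and with library structure as a block (0.53), and C1qa without day 1 replicate 2 (-0.74) or day 3 (-1.31). Over all runs that left out 1 library, Cfb ranged from -0.66 to 0.31 in macrophage-like and from -0.50 to 0.37 in columnar cells, C1qb from -0.17 to 0.55 in columnar cells, the interactions of C4b from -1.17 to 0.69 and of C1qc from -2.04 to 0.0056, and, late against early, C4b from -6.88 to 6.05 and Serping1 from -1.01 to 1.35 in fibroblast-like cells, and C1qa from -1.31 to 2.09 and C1qb from -1.21 to 3.30 in squamous-like cells.

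Counts of called genes moved by more than 1.5 times as follows. Without a filter they were 446, 655 and 235 in fibroblast-like, macrophage-like and columnar cells for tumor against normal, and 44, 1163 and 97 in fibroblast-like, columnar and squamous-like cells for late against early. A member that gained a call in these unfiltered fits did so among more called genes of all kinds. DESeq2 called 180, 629 and 199 (fibroblast-like, columnar, interaction) and, for late against early, 11, 16, 670 and 21. With dual index libraries only the counts were 347 and 0 in fibroblast-like and columnar cells, and without weakly marked columnar clusters 271. With library structure as a block they were 180 in columnar and 23 in squamous-like cells, against 0 without it. Leaving out 1 library gave 93 to 334, 337 to 654, 0 to 470 and 257 to 778 for tumor against normal, and 3 to 175, 2 to 2063 and 10 to 58 for late against early. The 7 tumor means, recomputed 53 times, moved by less than 1 SD. For runs that left out 1 library this was fixed in advance. Leaving out 1 value cannot move a mean by 1 SD of the same values. Without day 6 the fibroblast-like means of C3 (53.0 CPM) and C4b (97.8 CPM) moved by over 1.5 times. So did the macrophage-like mean of C1qc (630 CPM). Of 28 source shares only that of Cfb in columnar cells moved by 1 SD or more (63.7% at resolution 2). Leave-one-out and block fits of late against early in macrophage-like cells were not run, as day 3 had 4 such cells. Library structure was the only block fitted. By replicate number, no paired analysis was possible because the groups share only 1 number. Low counts limit C4b, Serping1 in macrophage-like cells and C3 in squamous-like cells.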
